A study of Homo sapiens with 6 samples.

Results

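IL1RAP, the accessory chain that the interleukin-1 receptor shares with its relatives, was followed together with 8 genes of the same signalling route in 786-O cells after loss of ALYREF. The 8 are the receptor chain IL1R1, the adaptor MYD88, the kinases IRAK1 and IRAK4, the ubiquitin ligase TRAF6, the TAK1-binding protein TAB2, the inhibitor TOLLIP and the cytokine gene CSF2. They were found by symbol in the deposited tables, and all 9 had a row among 11679 genes. The 9 genes were chosen by the deposited log2 changes of both comparisons together with knowledge of the pathway, since IL1RAP and CSF2 were already known to be among the leading rises. Their changes are therefore given as a description, without p-values. Calls at the authors' threshold, intervals and the test of the difference between the siRNAs are likewise descriptive for these 9.

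786-O is an established human line of clear cell renal cell carcinoma. All 6 libraries came from cells in RPMI with 10% FBS that received 1 siRNA by lipid transfection, were moved to fresh medium after 24 h and were harvested at 48 h. The controls (NTC) received the AllStars non-targeting siRNA, and the other groups received ALYREF siRNA5 or ALYREF siRNA8. Each group held 2 libraries of polyadenylated RNA, and nothing in the labels says that the duplicates were separate cultures. ALYREF, an adaptor for mRNA export, stood at 5.67% of the control level with siRNA5 and 7.83% with siRNA8, computed from the authors' deposited fold changes. The deposited tables give 1 mean over all libraries and 1 fold change per siRNA, so values per library and the depth of each library are unknown. Levels per group were rebuilt from that mean and both fold changes. They are estimates in normalized counts, not scaled to gene length, so that levels are compared within a gene only. In such bulk RNA, fewer cells of a kind and less RNA per cell cannot be told apart.

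Interleukin-1 alpha and beta bind IL1R1, and IL1RAP then joins to complete the receptor. The paired intracellular TIR domains recruit MYD88, which gathers IRAK4 and IRAK1. IRAK1 passes the signal to TRAF6, whose ubiquitin chains are read by TAB2 in the TAK1 kinase complex, and TAK1 activates the IKK complex with NF-kB and the p38 and JNK kinases. TOLLIP holds IRAK1 in an inactive state, and IL1R2 is a decoy receptor that binds the ligand without signalling. Targets of the pathway in epithelial and stromal cells include CSF2, CXCL8, IL6 and ICAM1.

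Of the renal and tubular markers listed for the check of the cell label, 8 of 11 were measured, among them PAX8 and VIM. Of the immune markers, 2 of 11 were measured (CD68 and CSF1R), and of the endothelial markers 0 of 6. The other markers, PTPRC and PECAM1 among them, were not analysed here. The summed rebuilt level of CD68 and CSF1R was 282 normalized counts in NTC, 215 with siRNA5 and 293 with siRNA8. CSF1R was lower with siRNA5 per the authors' deposited table (log2 change -0.77 with an SE of 0.31, adjusted p = 0.0275 by DESeq2). All libraries were made from cultures of the 786-O line, and the source of the CD68 and CSF1R RNA was not tested.

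Among the receptor chains, IL1RAP was higher with both siRNAs. Its rebuilt level was 211 normalized counts in NTC, 950 with siRNA5 and 446 with siRNA8. The order was siRNA5 above siRNA8 above NTC. By the authors' deposited tables IL1RAP rose by 2.17 ± 0.11 with siRNA5 and by 1.08 ± 0.12 with siRNA8, as log2 changes with their standard error (SE), here and below. "Rose" and "fell" mark an adjusted p under 0.05 in the authors' DESeq2 fit. These are rises of 4.49-fold and 2.11-fold. Ranked by log2 change in the authors' deposited tables, IL1RAP stood at place 4 of 11679 genes with siRNA5 and at place 165 with siRNA8. The siRNA5 change exceeded the siRNA8 change by 1.09 log2 units (95% interval 0.77 to 1.41), or 2.13-fold. Neither interval of a neighbouring pair in that order reached 0. The counts do not separate the membrane form of IL1RAP from its soluble form, which are made from the same gene by alternative processing.

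**Figure D1:**
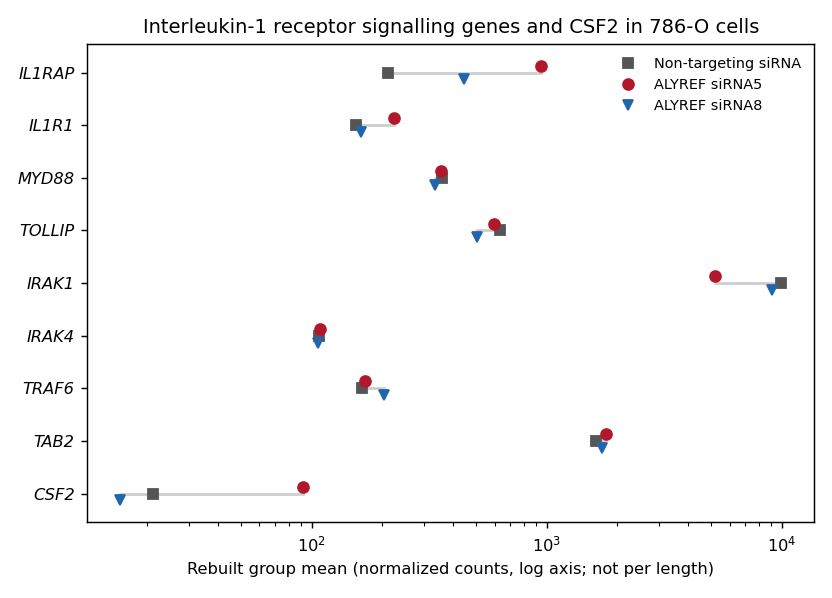
Rebuilt group means of the 9 genes in normalized counts on a log axis, with squares for NTC, circles for ALYREF siRNA5 and triangles for ALYREF siRNA8; each point is 1 estimate per group. IL1RAP runs from 211 to 950, CSF2 from 15.4 to 91.6 and IRAK1 from 5188 to 9954, while the 3 points of IRAK4 lie on each other.

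IL1R1, the chain that binds the ligand, changed less. Its estimated level was 154 normalized counts in NTC, 224 with siRNA5 and 162 with siRNA8. It rose by 0.54 ± 0.17 with siRNA5, and its log2 change with siRNA8 was 0.08 ± 0.17 per the authors' deposited tables. NTC and siRNA8 thus differed by less than their error. The siRNAs differed by 0.46 log2 units, with a 95% interval that ran from just under 0 (-0.0012) to 0.93.

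The decoy receptor IL1R2, singled out after its values were seen, moved in another way. Its rebuilt level was 22.0 normalized counts in NTC, 20.4 with siRNA5 and 60.6 with siRNA8. By the authors' deposited tables its log2 change was -0.11 ± 0.40 (adjusted p = 0.849) with siRNA5, and it rose by 1.46 ± 0.36 (adjusted p = 0.00021 by DESeq2) with siRNA8. The siRNAs differed by -1.57 ± 0.54 (adjusted p of the difference = 0.0141). For a gene singled out by its values, these p-values are a description only. IL1R2, IL1R1 and IL18R1 belong to a row of 6 neighbouring receptor genes in the RefSeq gene order (GRCh38.p14), of which these 3 were measured. IL18R1, a chain of the interleukin-18 receptor, had log2 changes of 0.30 ± 0.20 and 0.07 ± 0.20, and the inhibitory relative SIGIRR had 0.24 ± 0.20 and -0.47 ± 0.22 with siRNA5 and siRNA8 per the authors' deposited tables. None of these 4 values passed the threshold. Of the 10 ligand genes in the list, only IL18 was measured, at a mean of 14.5 normalized counts per the authors' deposited tables and without a call. IL1A, IL1B and the receptor antagonist IL1RN were not analysed here.

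IRAK1 was the only one of the 9 that fell with both siRNAs. It had a rebuilt level of 9954 normalized counts in NTC, 5188 with siRNA5 and 9105 with siRNA8. By the authors' deposited tables IRAK1 fell by 0.94 ± 0.045 with siRNA5 and fell by 0.13 ± 0.043 with siRNA8. The level with siRNA5 was 52.1% of the control and that with siRNA8 was 91.5%. IRAK1 was lower with siRNA5 than with siRNA8, by -0.81 log2 units (95% interval -0.93 to -0.69).

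The other kinase of the receptor complex, IRAK4, was not called with either siRNA. The rebuilt levels were 108 normalized counts in NTC, 109 with siRNA5 and 107 with siRNA8. Its log2 changes were 0.01 ± 0.22 and -0.01 ± 0.21 per the authors' deposited tables. The 95% intervals, -0.41 to 0.44 with siRNA5 and -0.43 to 0.41 with siRNA8, do not exclude a change of that size in either direction.

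MYD88, the adaptor that the assembled receptor recruits, had rebuilt levels of 359, 357 and 336 normalized counts in NTC, siRNA5 and siRNA8. Its log2 changes were -0.01 ± 0.12 and -0.10 ± 0.12 per the authors' deposited tables, and its groups differed by less than their error. TOLLIP had rebuilt levels of 635 normalized counts in NTC, 599 with siRNA5 and 507 with siRNA8. It fell by 0.33 ± 0.095 with siRNA8, and its log2 change with siRNA5 was -0.08 ± 0.094 per the authors' deposited tables. The difference between the siRNAs, 0.24 log2 units, had a 95% interval of -0.02 to 0.50.

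Downstream of the kinases, TRAF6 had rebuilt levels of 164 normalized counts in NTC, 170 with siRNA5 and 203 with siRNA8. Its log2 changes were 0.05 ± 0.16 and 0.31 ± 0.16 per the authors' deposited tables, and neither was called. TAB2, the ubiquitin-binding subunit of the TAK1 complex, had rebuilt levels of 1620, 1793 and 1719 normalized counts in the same order. Its log2 changes were 0.15 ± 0.066 and 0.09 ± 0.066 per the authors' deposited tables, and neither was called. TAB2 with siRNA5 lay close to the threshold and was called as higher when genes with a mean under 50 normalized counts were left out of the adjustment.

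**Figure D2:**
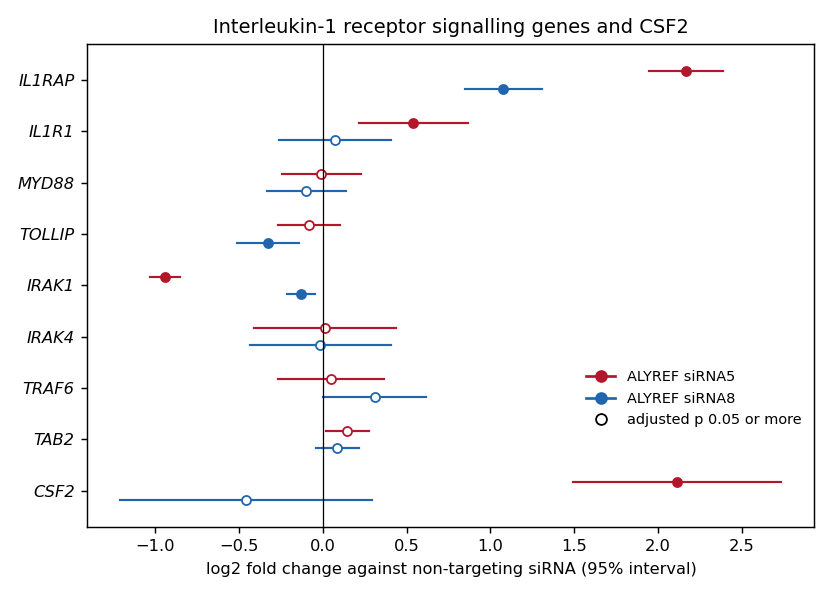
Log2 fold changes of the 9 genes against NTC, red for ALYREF siRNA5 and blue for ALYREF siRNA8, with bars for 95% intervals from the authors' standard errors; open points have an adjusted p of 0.05 or more. IL1RAP lies above 0 with both siRNAs (2.17 and 1.08), CSF2 at 2.12 with siRNA5 and -0.46 with siRNA8, and IRAK1 at -0.94 and -0.13.

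CSF2, which encodes the growth factor GM-CSF, was the target gene among the 9. Its rebuilt level was 21.1 normalized counts in NTC, 91.6 with siRNA5 and 15.4 with siRNA8. CSF2 rose by 2.12 ± 0.32 with siRNA5, a 4.33-fold rise, and had a log2 change of -0.46 ± 0.38 with siRNA8 per the authors' deposited tables. The 95% interval for siRNA8, -1.21 to 0.29, included 0. The siRNAs stood 2.57 log2 units apart (95% interval 1.60 to 3.55), or 5.95-fold, at a low level where counting error is large.

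In all, 4 of the 9 genes were called with siRNA5, 3 higher and 1 lower. In that comparison 46.4% of all genes were called, 24.4% higher and 22.0% lower. With siRNA8, 3 of the 9 were called, 1 higher and 2 lower, and 41.5% of all genes were called, 21.0% higher and 20.5% lower. IL1RAP, IRAK1 and CSF2 passed the test of the difference between the siRNAs, which 32.0% of all genes passed. Both comparisons rest on the same NTC libraries. The 9 genes had been chosen with these comparisons in view, so that no more is read from the counts or from the test of the difference.

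The 3 genes most like IL1RAP were sought among the other 9356 genes whose mean reached 100 normalized counts, by the Euclidean distance between pairs of log2 changes. The measure rests on 3 groups only. ZNF850, a zinc-finger gene, lay at a distance of 0.22, with log2 changes of 1.94 ± 0.17 and 1.08 ± 0.18 per the authors' deposited tables. PRKCE, protein kinase C epsilon, lay at 0.29, with 2.02 ± 0.12 and 1.33 ± 0.12 per the authors' deposited tables. PLAU, the urokinase plasminogen activator, lay at 0.42, with 1.77 ± 0.069 and 1.21 ± 0.070 per the authors' deposited tables.

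The rest of the route was described through a list of 89 pathway genes, of which 70 were measured, the 8 signalling genes above included. With siRNA5, 20 rose, 12 fell and 38 were not called. The called share, 45.7%, lay near the 46.4% of all genes, and the median log2 change was 0.03 against 0.01 over all genes. With siRNA8, 19 rose, 12 fell and 39 were not called, a called share of 44.3% beside 41.5% of all genes, with a median of 0.08 against 0.01. The difference between the siRNAs was called for 30.0% of the list and 32.0% of all genes. The called shares of the list as a whole lay near those of all genes, while those of single layers varied. Several layers held genes called in opposite directions. Of the 5 measured receptor chains, 2 rose and 0 fell with each siRNA, and IL1RAP, chosen with its rise known, was among them both times. That is a called share of 40%, beside 46.4% and 41.5% of all genes. With siRNA8, 1 chain was lower at an unadjusted p under 0.05 by the authors' DESeq2 test. The p38 and JNK arm and the maturation genes also held called rises and no called falls with siRNA8.

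**Figure D3:**
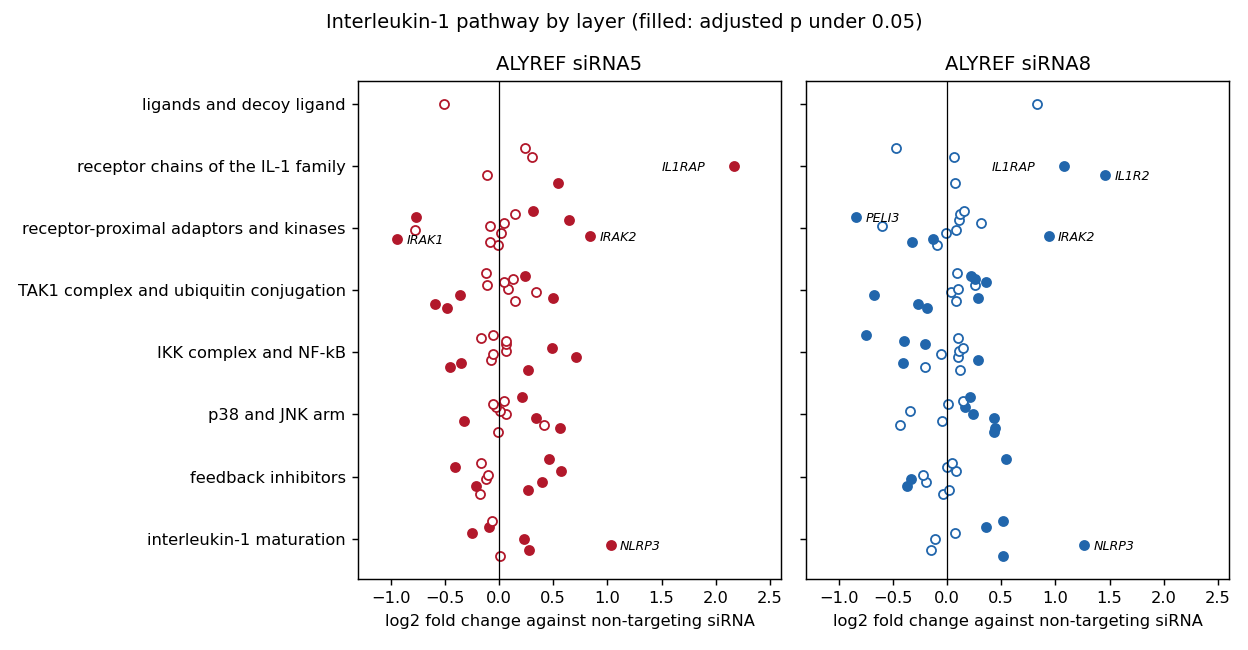
Log2 fold changes of the 70 measured pathway genes by layer, from ligands at the top to maturation factors at the bottom, for siRNA5 (left) and siRNA8 (right); filled points were called at an adjusted p under 0.05. Most points lie within 1 log2 unit of 0, and IL1RAP at 2.17 is the farthest in the siRNA5 panel, while IL1R2 at 1.46 is the farthest in the siRNA8 panel.

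Among the 12 measured receptor-proximal adaptors and kinases, 3 rose and 2 fell with siRNA5, and 1 rose and 3 fell with siRNA8. The called shares were 41.7% with siRNA5 and 33.3% with siRNA8, beside 46.4% and 41.5% of all genes. IRAK2, a relative of IRAK1 that sustains late signalling, had rebuilt levels of 125 normalized counts in NTC, 225 with siRNA5 and 240 with siRNA8. It rose by 0.84 ± 0.15 (adjusted p = 1.3e-07) and 0.94 ± 0.15 (adjusted p = 2.69e-09) in the authors' deposited DESeq2 tables. Its changes were thus opposite in sign to those of IRAK1 with both siRNAs. The siRNAs differed by -0.09 log2 units for IRAK2 (95% interval -0.51 to 0.32). PELI1, a Pellino ubiquitin ligase that acts on IRAK1, rose by 0.65 ± 0.13 with siRNA5 and stood at a log2 change of 0.11 ± 0.13 with siRNA8 per the authors' deposited tables. Its relative PELI3 fell by 0.77 ± 0.27 and 0.84 ± 0.27 per the authors' deposited tables.

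The TAK1 complex was called in both directions. TAK1 itself (MAP3K7) fell by 0.48 ± 0.081 with siRNA5 and 0.19 ± 0.078 with siRNA8 per the authors' deposited tables. Its activating subunit TAB1 fell by 0.59 ± 0.11 and 0.27 ± 0.11, whereas TAB3, a relative of TAB2, rose by 0.50 ± 0.11 and 0.28 ± 0.11 per the authors' deposited tables. UBE2N, the conjugating enzyme for the ubiquitin chains that TRAF6 builds, fell by 0.36 ± 0.058 and 0.67 ± 0.059 per the authors' deposited tables. Its partner UBE2V1 had a mean of only 16.2 normalized counts per the authors' deposited tables, and shares exons with a read-through transcript, so that its value is uncertain. RBCK1, part of the linear ubiquitin ligase, rose by 0.36 ± 0.067 with siRNA8, and the scaffold SQSTM1 rose by 0.24 ± 0.060 and 0.22 ± 0.060 per the authors' deposited tables. Of the 12 genes in this layer, 2 rose and 3 fell with siRNA5 (41.7% called, where 46.4% of all genes were), and 4 rose and 3 fell with siRNA8 (58.3% called, where 41.5% of all genes were).

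Of the 12 IKK and NF-kB genes, 3 rose and 2 fell with siRNA5, and 1 rose and 4 fell with siRNA8. The called share was 41.7% with each siRNA, beside 46.4% and 41.5% of all genes. NFKB2, the precursor of the p52 subunit, rose by 0.71 ± 0.062 with siRNA5 and stood at a log2 change of 0.10 ± 0.063 with siRNA8 per the authors' deposited tables. Its rebuilt levels were 1657, 2707 and 1775 normalized counts in NTC, siRNA5 and siRNA8, and the siRNAs differed by 0.61 ± 0.089 (adjusted p of the difference = 1.51e-10). RELB, its partner, rose by 0.49 ± 0.11 with siRNA5, while the p65 subunit RELA had log2 changes of 0.07 ± 0.077 and 0.11 ± 0.076 per the authors' deposited tables. NFKB1 rose by 0.29 ± 0.061 with siRNA8, and its log2 change with siRNA5 was -0.07 ± 0.063 per the authors' deposited tables. IKBKG, the regulatory IKK subunit NEMO, fell by 0.35 ± 0.11 and 0.40 ± 0.11, and the kinase IKBKB fell by 0.45 ± 0.15 with siRNA5 per the authors' deposited tables. CHUK, also of the IKK complex, rose by 0.27 ± 0.075 with siRNA5 per the authors' deposited table. Its log2 change with siRNA8 was 0.12 ± 0.076, without a call. BCL3, a nuclear cofactor of NF-kB, fell by 0.75 ± 0.22 with siRNA8 per the authors' deposited table. NFKBIB fell by 0.40 ± 0.11 with siRNA8 per the authors' deposited table, and NFKBIA, also of this layer, is given with the feedback inhibitors.

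In the p38 and JNK arm, 3 of 11 genes rose and 1 fell with siRNA5, and 6 rose and 0 fell with siRNA8 by the authors' DESeq2 test (0 fell at an unadjusted p under 0.05). Of all genes, 24.4% rose and 22.0% fell with siRNA5, and 21.0% rose and 20.5% fell with siRNA8. The JNK activator MAP2K4 rose by 0.56 ± 0.088 and 0.44 ± 0.089, and the kinase JNK1 (MAPK8) by 0.34 ± 0.064 and 0.43 ± 0.063 per the authors' deposited tables. JUN, the transcription factor they activate, rose by 0.21 ± 0.058 with each siRNA per the authors' deposited tables. MAP2K7 fell by 0.33 ± 0.092 with siRNA5, and the p38 activator MAP2K3 rose by 0.43 ± 0.087 with siRNA8 per the authors' deposited tables.

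Feedback inhibitors gave 4 rises and 2 falls among 10 genes with siRNA5, and 1 rise and 2 falls with siRNA8. Called shares were thus 60.0% and 30.0%, beside 46.4% and 41.5% of all genes. DUSP1, a phosphatase for p38 and JNK, rose by 0.46 ± 0.078 and 0.54 ± 0.077, and TNIP2, an A20-binding protein, fell by 0.21 ± 0.079 and 0.37 ± 0.079 per the authors' deposited tables. NFKBIZ, an NF-kB regulator induced by interleukin-1, rose by 0.57 ± 0.080 with siRNA5 and stood at a log2 change of 0.08 ± 0.082 with siRNA8 per the authors' deposited tables. OTUD7B, a deubiquitinase, fell by 0.41 ± 0.096 with siRNA5, and OTULIN, which removes linear ubiquitin chains, fell by 0.33 ± 0.067 with siRNA8 per the authors' deposited tables. TNFAIP3 (A20) and the NF-kB inhibitor NFKBIA, both immediate targets of NF-kB, had log2 changes with siRNA5 of -0.17 ± 0.12 and 0.06 ± 0.085 per the authors' deposited table, and neither was called. With siRNA8, NFKBIA fell by 0.20 ± 0.086 (adjusted p = 0.0460 by DESeq2), and TNFAIP3 had a log2 change of -0.03 ± 0.12 per the authors' deposited table. NFKBIA was counted among the IKK and NF-kB genes above, so its fall is not 1 of the 2 in this layer.

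Of the 7 measured genes of interleukin-1 maturation, 3 rose and 2 fell with siRNA5, and 4 rose and 0 fell with siRNA8 by the authors' DESeq2 test (0 fell at an unadjusted p under 0.05). That is a called share of 71.4% and 57.1% among few genes, beside 46.4% and 41.5% of all genes. NLRP3, an inflammasome sensor, had rebuilt levels of 63.3 normalized counts in NTC, 130 with siRNA5 and 152 with siRNA8. It rose by 1.03 ± 0.23 (adjusted p = 2.84e-05) and 1.27 ± 0.22 (adjusted p = 1.5e-07) in the authors' deposited DESeq2 tables. CASP4, an inflammatory caspase, rose by 0.52 ± 0.089 and the calpain CAPN2 by 0.36 ± 0.037 with siRNA8, while with siRNA5 CAPN2 fell by 0.10 ± 0.038 and CASP4 had a log2 change of 0.01 ± 0.094 per the authors' deposited tables. The sensor NLRP1 rose by 0.28 ± 0.098 and CAPN1 fell by 0.25 ± 0.056 with siRNA5 per the authors' deposited table. CASP1, which cleaves pro-interleukin-1 beta, was not analysed here.

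The genes that interleukin-1 signalling switches on form the last layer. To show the start regions of genes that rose with siRNA5, the promoters of IL1RAP, CSF2, CXCL8 and ICAM1 were read from RefSeq's table (GRCh38.p14, 250 bases before to 50 after the annotated start, 5′ to 3′ on the gene's strand). Capitals mark the NF-kB motif GGAATTTCC (GGAAATTCC on the other strand) and the AP-1 motif TGACTCA, which reads TGAGTCA on the other strand. The motifs do not overlap each other. The windows are chr3:190513835-190514134 for IL1RAP, chr5:132073539-132073838 for CSF2, chr4:73740319-73740618 for CXCL8 and chr19:10270870-10271169 for ICAM1, all on the plus strand.
IL1RAP: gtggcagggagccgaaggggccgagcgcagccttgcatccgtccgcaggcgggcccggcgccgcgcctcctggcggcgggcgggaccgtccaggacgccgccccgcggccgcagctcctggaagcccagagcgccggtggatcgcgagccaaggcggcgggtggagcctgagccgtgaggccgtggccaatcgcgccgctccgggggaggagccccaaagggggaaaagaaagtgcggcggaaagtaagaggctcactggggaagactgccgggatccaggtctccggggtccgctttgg
CSF2: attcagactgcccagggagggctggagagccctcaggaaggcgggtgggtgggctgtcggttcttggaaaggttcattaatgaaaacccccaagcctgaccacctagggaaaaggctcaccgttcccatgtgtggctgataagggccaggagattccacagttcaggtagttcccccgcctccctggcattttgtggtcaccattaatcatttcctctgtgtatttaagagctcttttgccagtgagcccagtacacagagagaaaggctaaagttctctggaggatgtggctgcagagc
CXCL8: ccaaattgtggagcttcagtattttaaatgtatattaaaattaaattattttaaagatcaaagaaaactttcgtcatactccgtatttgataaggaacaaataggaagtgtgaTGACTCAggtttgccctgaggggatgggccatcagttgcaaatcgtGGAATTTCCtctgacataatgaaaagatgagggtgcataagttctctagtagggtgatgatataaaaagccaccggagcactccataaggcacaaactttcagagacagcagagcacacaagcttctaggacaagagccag
ICAM1: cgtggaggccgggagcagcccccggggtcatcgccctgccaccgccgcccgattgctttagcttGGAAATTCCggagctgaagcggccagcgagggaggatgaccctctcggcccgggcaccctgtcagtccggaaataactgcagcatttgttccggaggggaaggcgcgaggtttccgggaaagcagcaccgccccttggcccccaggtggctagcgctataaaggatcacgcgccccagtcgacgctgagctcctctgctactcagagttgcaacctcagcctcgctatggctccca

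The CXCL8 window held the NF-kB motif from position -91 and the AP-1 motif from position -137, and the ICAM1 window held the NF-kB motif from -186, counted from the annotated start. The windows of IL1RAP and CSF2 held neither set of letters. Only these exact letters were searched, and other forms of NF-kB or AP-1 sites were not. A window without a match, here and below, may therefore still hold such a site. Of the 35116 promoter windows in the table, 0.461% held the NF-kB motif and 4.95% the AP-1 motif. All 9 genes matched the table, with 14 windows in all. The NF-kB motif was in windows of 0 of these 9 genes, and the AP-1 motif in that of 1, IRAK1. Of the 23 measured targets, 17 matched, and 6 held the NF-kB motif (CXCL1, CXCL2, CXCL3, CXCL5, CXCL8 and ICAM1) while 3 held the AP-1 motif (CXCL8, IL11 and TNFAIP6). These letters were taken from sites long known in such promoters, so the 6 matches are a description and no enrichment.

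Of 31 target genes in the list, 23 were measured, CSF2 among them. With siRNA5, 13 rose, 1 fell and 9 were not called, with a median log2 change of 0.69 against 0.01 over all genes. The share that rose was 56.5%, beside 24.4% of all genes. With siRNA8, 6 rose, 4 fell and 13 were not called, with a median of 0.13 against 0.01 over all genes, and the share that rose was 26.1% beside 21.0% of all genes. The difference between the siRNAs was called for 13 of the 23, or 56.5%, beside 32.0% of all genes, and 11 of these 13 were higher with siRNA5. The list is no independent evidence of its direction, because several of its genes were known from earlier results of these data.

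**Figure D4:**
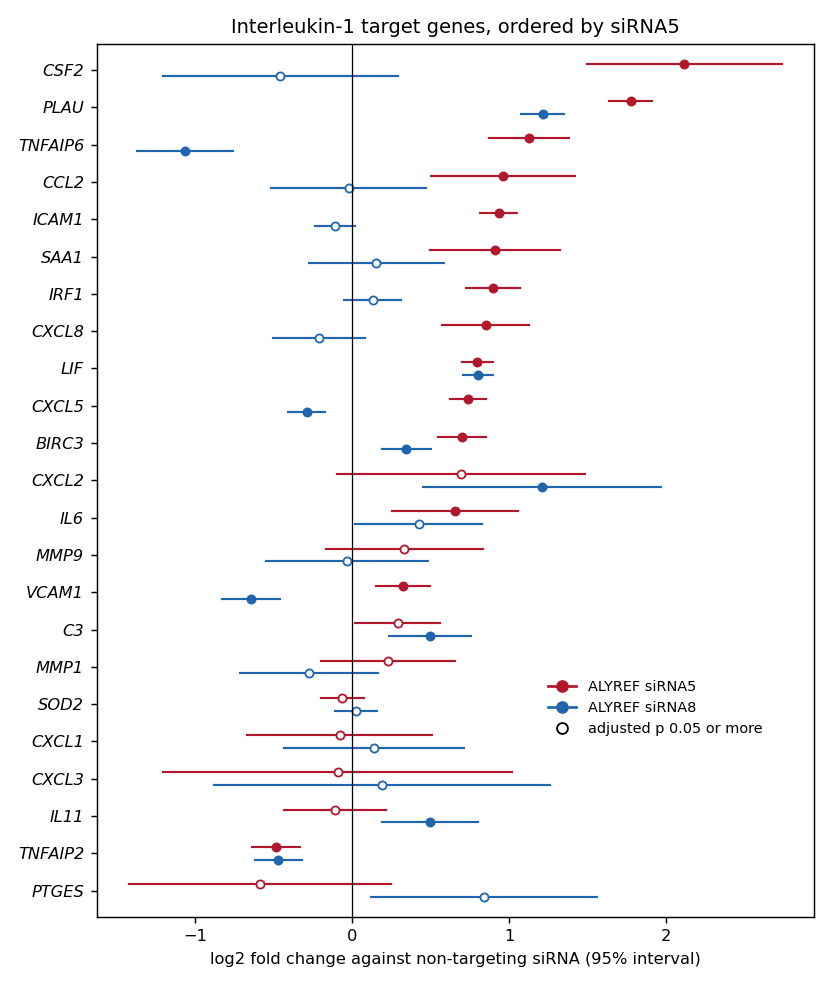
Log2 fold changes of the 23 measured interleukin-1 target genes against NTC with 95% intervals, ordered by the siRNA5 value, red for siRNA5 and blue for siRNA8; open points have an adjusted p of 0.05 or more. The red points run from 2.12 for CSF2 down to -0.58 for PTGES, and TNFAIP6, CXCL5 and VCAM1 have filled points on both sides of 0.

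TNFAIP6, which encodes the hyaluronan-binding protein TSG-6, changed in opposite directions. Its rebuilt level was 230 normalized counts in NTC, 503 with siRNA5 and 110 with siRNA8. It rose by 1.13 ± 0.13 (adjusted p = 8.67e-17) with siRNA5 and fell by 1.06 ± 0.16 (adjusted p = 1.1e-10) with siRNA8, by DESeq2 per the authors' deposited tables. The gap of 2.19 log2 units ± 0.20 (adjusted p of the difference = 2.55e-25) was 4.57-fold. The neutrophil chemokine gene CXCL5 had rebuilt levels of 2029, 3381 and 1660 normalized counts in NTC, siRNA5 and siRNA8. It rose by 0.74 ± 0.058 with siRNA5 and fell by 0.29 ± 0.060 with siRNA8 per the authors' deposited tables. VCAM1, an adhesion receptor for leukocytes, likewise rose by 0.33 ± 0.088 and fell by 0.64 ± 0.094 per the authors' deposited tables, and the siRNAs differed by 0.97 ± 0.13 (adjusted p of the difference = 1.61e-12).

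A further set, named after its values were seen, was called with siRNA5 and not with siRNA8. ICAM1, the other adhesion receptor, had rebuilt levels of 1601, 3056 and 1486 normalized counts in NTC, siRNA5 and siRNA8. Its log2 changes were 0.93 ± 0.061 and -0.11 ± 0.064 per the authors' deposited tables, a difference of 1.04 (adjusted p of the difference = 5.05e-30). The neutrophil chemokine CXCL8 had log2 changes of 0.85 ± 0.14 and -0.21 ± 0.15, and the monocyte chemokine CCL2 had 0.96 ± 0.23 and -0.02 ± 0.25 per the authors' deposited tables. For IRF1, a transcription factor, the values were 0.90 ± 0.089 and 0.13 ± 0.093, and for SAA1, an acute-phase gene nearly identical to SAA2 and so of uncertain count, 0.91 ± 0.21 and 0.16 ± 0.22 per the authors' deposited tables. The difference between the siRNAs passed its test for all 5 (largest adjusted p of the difference = 0.0442, for SAA1). These 5 were picked for that pattern, so the test is no support for it and its values are a description. IL6 had 0.65 ± 0.20 and 0.42 ± 0.21 per the authors' deposited tables, and its difference of 0.23 did not pass (adjusted p of the difference = 0.608, 95% interval -0.34 to 0.80).

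Other targets rose with both siRNAs. LIF, a cytokine of the gp130 family, had rebuilt levels of 2013, 3498 and 3505 normalized counts in NTC, siRNA5 and siRNA8. It rose by 0.80 ± 0.050 with siRNA5 and 0.80 ± 0.049 with siRNA8 per the authors' deposited tables, and the difference lay between -0.14 and 0.13 log2 units (95% interval). PLAU had rebuilt levels of 718, 2456 and 1666 normalized counts in the same order, and the apoptosis inhibitor BIRC3 rose by 0.70 ± 0.079 and 0.35 ± 0.080 per the authors' deposited tables. TNFAIP2 fell by 0.48 ± 0.077 and 0.47 ± 0.076 per the authors' deposited tables. With siRNA8 alone called, C3, the central complement protein, rose by 0.50 ± 0.13, IL11 by 0.50 ± 0.16 and CXCL2 by 1.21 ± 0.39 (from a mean of 29.3 normalized counts) per the authors' deposited table. IL11 differed between the siRNAs (-0.61, adjusted p of the difference = 0.0272), whereas C3 and CXCL2 did not pass that test (adjusted p of the difference = 0.455 and 0.534). IL11, C3 and CXCL2, like SOD2 and CXCL1 below, were named after their values were seen, so these p-values are a description. SOD2 and CXCL1, both common targets of NF-kB, were not called with either siRNA, at log2 changes of -0.06 ± 0.069 and 0.02 ± 0.068 for SOD2 and -0.08 ± 0.30 and 0.14 ± 0.29 for CXCL1 per the authors' deposited tables.

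**Figure D5:**
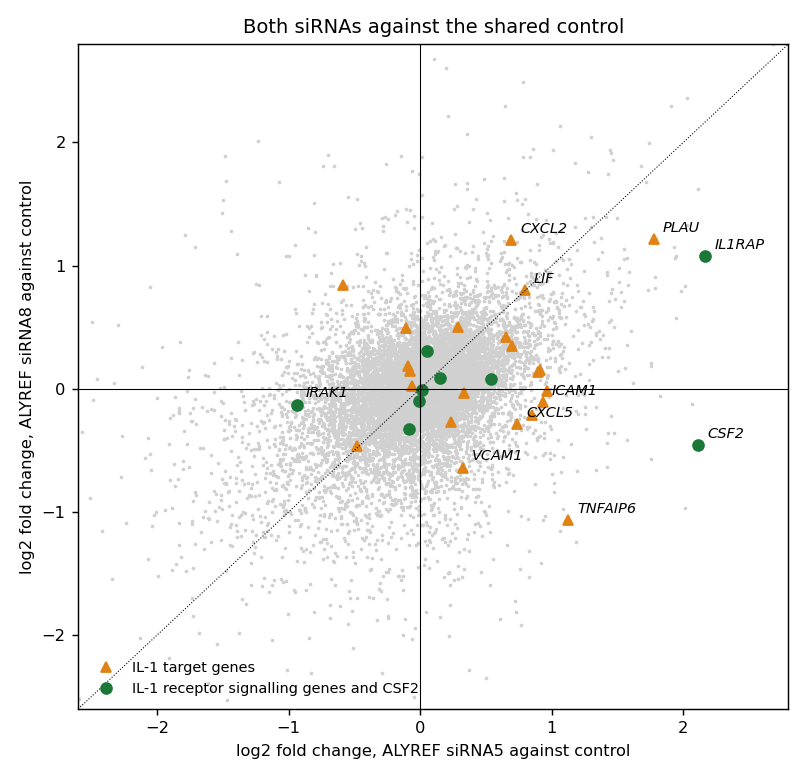
Log2 fold change with ALYREF siRNA8 against that with siRNA5 for all genes (grey; 19 genes fall outside the axes), with the 9 genes as green circles and the other interleukin-1 targets as orange triangles; both axes share the NTC libraries, and the dotted line marks equal changes. IL1RAP and PLAU lie high on both axes, while CSF2 and TNFAIP6 lie to the right and below 0.

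Toll-like receptors also signal through MYD88, and 3 genes of a list of 9 for these receptors and their cofactors were measured. TLR2, TLR4 and CD14, among others of the list, were not analysed here. Of the 3, 1 was called with siRNA5 and 2 with siRNA8 (33.3% and 66.7%), beside 46.4% and 41.5% of all genes. TLR6 rose by 0.68 ± 0.27 with siRNA5 and 0.88 ± 0.27 with siRNA8 per the authors' deposited tables. The cofactor LY96, at a mean of 21.4 normalized counts, rose by 1.31 ± 0.46 with siRNA8 per the authors' deposited table. Its log2 change with siRNA5 was -0.44 ± 0.54, without a call. At a threshold of 0.01, neither TLR6 with siRNA5 nor LY96 with siRNA8 was called. TLR3, which uses another adaptor than MYD88, was not called with either siRNA.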

How the data were processed

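RNA of 6 libraries in 3 groups of 2 was measured, and the deposited data are 2 tables of the authors' results, 1 per siRNA, tied to their siRNA by the number that file names and library titles share. The tables hold 11681 rows, of which 2 are HTSeq counters that take up 7.85% of the summed means and were left out. Per the submitters' processing notes, STAR, Picard, HTSeq and DESeq2 were used with build hg19, and versions, a filter on low counts and any shrinkage of fold changes are not given in the sources used here. Per the file headers, the mean is a signal, the normalized count averaged over the libraries of 1 fit, identical in both tables. Per the file headers, fold changes and standard errors (SE) are log2 values, the Wald score is their ratio, and the authors' p-values were adjusted by Benjamini-Hochberg over all rows, which was checked by recomputing them. The smallest mean of a gene was 11.6 and the median 459.

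Computed here (Python 3.11.15, numpy 2.4.6, scipy 1.17.1): levels per group, rebuilt from the mean and both fold changes on the assumption of equal group weights and unshrunk fold changes, 95% normal intervals from the authors' SE, and the difference between the siRNAs over the root of the summed squared SE, with a normal two-sided p adjusted over 11679 genes. That SE leaves out the shared controls' covariance and is an upper bound. Dispersions rebuilt from each table agreed within 10% for 96.4% of genes. With duplicates that may be technical, p-values reflect only how much these libraries varied.

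The 9 genes and the gene lists were chosen with earlier results of these data known. Lists cover ligands, receptor chains, receptor-proximal adaptors and kinases, the TAK1 complex, IKK and NF-kB, p38 and JNK, feedback inhibitors, interleukin-1 maturation (together the pathway list), target genes, Toll-like receptors and markers of renal, immune and endothelial cells. Named genes are the 9 and ALYREF, list members called with both siRNAs, in each list and comparison the 2 largest called rises and falls at a mean of 50 or more, and the 3 genes nearest to IL1RAP. This took 50 genes, and others are said to be chosen after their values were seen or appear as examples of their list. Alternatives were a threshold of 0.01, adjustment without genes of a mean under 50, centring on the median of all genes, and a rebuilt SE of the difference.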

Additional observations from a re-analysis of the deposited data

Results flagged for a closer look

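Effects of the 2 ALYREF siRNAs against the same control differed, by the test of the difference with an adjusted p under 0.05, for the genes below. Values are siRNA5 minus siRNA8 in log2 units. Of all genes, 32.0% passed this test. IL1R2, LY96, NFKBIB, CYLD, TNIP1, GSDMD and S100A13 were picked after their values were seen. So were the targets CXCL8, ICAM1, CCL2, IRF1, SAA1, IL11 and PTGES. Among the 9 chosen genes, these were IL1RAP (1.09), IRAK1 (-0.81) and CSF2 (2.57), and they are a description because the genes were chosen with these values in view. Receptors and their cofactors with a difference were the decoy IL1R2 (-1.57) and LY96 (-1.75), both lower with siRNA5 and both of low level.

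In the signalling layers, the siRNA5 change was above the siRNA8 change for PELI1 (0.54), UBE2N (0.31), NFKB2 (0.61), NFKBIB (0.46), NFKBIZ (0.49), CYLD (0.59), TNIP1 (0.26), NLRP1 (0.43) and GSDMD (0.34). It was below for MAP3K7 (-0.30), RBCK1 (-0.32), NFKB1 (-0.36), MAP2K3 (-0.44), OTUD7B (-0.41), CAPN2 (-0.46), CAPN1 (-0.32), CASP4 (-0.51) and S100A13 (-0.58).

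Among interleukin-1 targets, the siRNA5 change was above the siRNA8 change for TNFAIP6 (2.19), CXCL8 (1.06), ICAM1 (1.04), CXCL5 (1.03), CCL2 (0.98), VCAM1 (0.97), IRF1 (0.77), SAA1 (0.75), PLAU (0.56) and BIRC3 (0.36), and below for IL11 (-0.61) and for PTGES (-1.43), which has a low level. Of the genes nearest to IL1RAP, ZNF850 (0.87) and PRKCE (0.69) also differed.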

How the results depend on the processing

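No paired analysis was possible because the deposited tables hold no values per library, and for that reason no replicate could be left out either. Centring the fold changes on the median of all genes (0.0097 with siRNA5 and 0.0063 with siRNA8) turned the sign of 1 uncalled value, CASP4 with siRNA5, to -0.0029. With the shared control variance rebuilt from the tables, 5615 genes in place of 3739 differed between the siRNAs, 2712 of them lower with siRNA5, and 5 of the 9 chosen genes in place of 3 did, 4 of them higher with siRNA5. The genes added were IL1R1 and TOLLIP. When only genes with a mean of at least 50 were tested, 1 of the 9 was higher with siRNA5, since CSF2 is below that mean, and TAB2 with siRNA5 was called. Counts of called genes against the control stayed within 1.5 times under all alternatives run, for all genes, the 9 genes, the pathway list and the target list. Of 78 genes tracked, 218 of 227 values with siRNA5, 222 of 227 with siRNA8 and 282 of 305 for the difference kept their direction and side of the threshold. The depth of each library is unknown, which limits what can be said of CSF2, IL1R2, LY96, CXCL2, PTGES, UBE2V1 and IL18, whose means are under 50.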
